A study of Mus musculus with 6 samples.

Results

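Lens identity is set up in surface ectoderm by a small group of transcriptional regulators that later persist mainly in the epithelial cells covering the front of the lens. The 10 genes described here are members of that group, taken by name: Pax6, Foxe3, Pitx3, Six3, Meis1, Meis2, Tfap2a, Mab21l1, Sox2 and Sox11. They make up 10 of the 22298 rows of an expression table from newborn mouse lenses. All 10 were found in it, 9 were abundant enough to be tested, and Sox11 was left untested because its mean lay below 0.5 FPKM (fragments per kilobase of transcript, scaled to sequencing depth). The study compared lenses of WT mice with lenses of Fyco1-/- mice, both of strain C57BL/6 and both taken at postnatal day 0. Each genotype gave 3 libraries, lettered A to C, of total RNA from 10 pooled lenses each, so the spread between libraries is a spread between pools. How the Fyco1-/- allele was made, and in which cells FYCO1 is lost, is not given in the sources used here. FYCO1 itself is an adaptor that links autophagosomes to kinesin for transport along microtubules.

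Pax6 stands at the head of the group: it is needed for the ectoderm to become lens, and Six3, Meis1 and Meis2 act on its expression in that ectoderm. Sox2 is a DNA-binding partner of Pax6, Mab21l1 is needed for the lens placode, and Foxe3, Pitx3, Tfap2a and Sox11 are needed as the lens vesicle forms and separates. Foxe3 and Pitx3 then keep the epithelium in place. As epithelial cells differentiate into the fibre cells that fill the lens, most of these genes are turned down and factors such as Prox1, Maf and Hsf4 take over.

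By estimate from step sizes among low FPKM values, the libraries held 17050000 to 20000000 reads, and crystallins took 70.2 to 71.7% of summed FPKM. Log values correlated at 0.9896 to 0.9914 within a genotype and at 0.9782 to 0.9818 between genotypes. Fyco1 measured 5.40, 5.21 and 5.11 FPKM in WT libraries A to C and 4.61, 4.59 and 4.87 FPKM in Fyco1-/- libraries A to C (log2 -0.15, limma adjusted p = 0.27). A sum over the whole gene does not settle whether its transcript is functional, so the genotype rests on the labels. Most lens markers were present. Cdh1 at 17.7 to 22.1 and Sfrp1 at 241 to 290 FPKM are examples for epithelium, and Crybb1 at 56794 to 60778 FPKM for fibres. Of the 25 epithelial markers, 2 (Krt8 and Sfrp2) were below 0.5 FPKM in every library, and Krt18 reached at most 0.79 FPKM. The fibre gene Lim2 had an entry at 2.67 to 3.48 FPKM and another at no more than 0.15 FPKM. Pax6, Six3, Sox2 and Meis genes are also expressed in retina. The retinal gene Rax reached at most 0.92 FPKM, the neuronal genes Tubb3, Rbpms and Elavl4 of the same list at most 3.50, 1.4998 and 1.11 FPKM, and 12 of the 20 retinal markers were below 0.5 FPKM in every library. The summed retinal markers were 7.45 to 8.10 FPKM in WT and 5.25 to 8.59 in Fyco1-/- libraries. Summed markers of cornea and skin were 11.2 to 12.1 against 9.11 to 12.01 FPKM, of pigment cells 5.26 to 5.48 against 5.09 to 6.40, of mesenchyme 30.1 to 41.3 against 29.3 to 31.1, of endothelium 34.3 to 43.6 against 32.6 to 37.7, and of immune and blood cells 110 to 198 against 106 to 244. Of the 32 tested genes of these 6 lists, limma called 0 different. At an unadjusted limma p under 0.05 there were 6 lower, 3 of them mesenchymal, and 0 higher. Over all tested genes 15.1% were lower at that threshold. The part of these other cell types in the members' values was not tested.

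In WT lenses Foxe3 was the most abundant of the 10 genes per length, at 133 FPKM, above 98.0% of tested genes. Pitx3 followed at 85.3 FPKM (above 96.9%) and Pax6 at 36.5 FPKM (above 92.3%). Six3 at 23.3, Mab21l1 at 18.9 and Sox2 at 13.1 FPKM came next, and the ranges of Six3 and Mab21l1 overlapped in WT. Tfap2a stood at 8.30, Meis2 at 4.97 and Meis1 at 1.99 FPKM. Sox11 was last at 0.37 FPKM, resting on an estimated 41 to 72 reads per library, against 6895 to 8766 reads for Pax6. The Fyco1-/- libraries had the same order of means. The Foxe3 gene model used here (GENCODE M21) is 1 block of 867 bases with no UTR. The model length behind the authors' FPKM is not given in the sources used here, so the rank of Foxe3 depends on it, whereas comparisons of Foxe3 between genotypes do not.

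**Figure D1:**
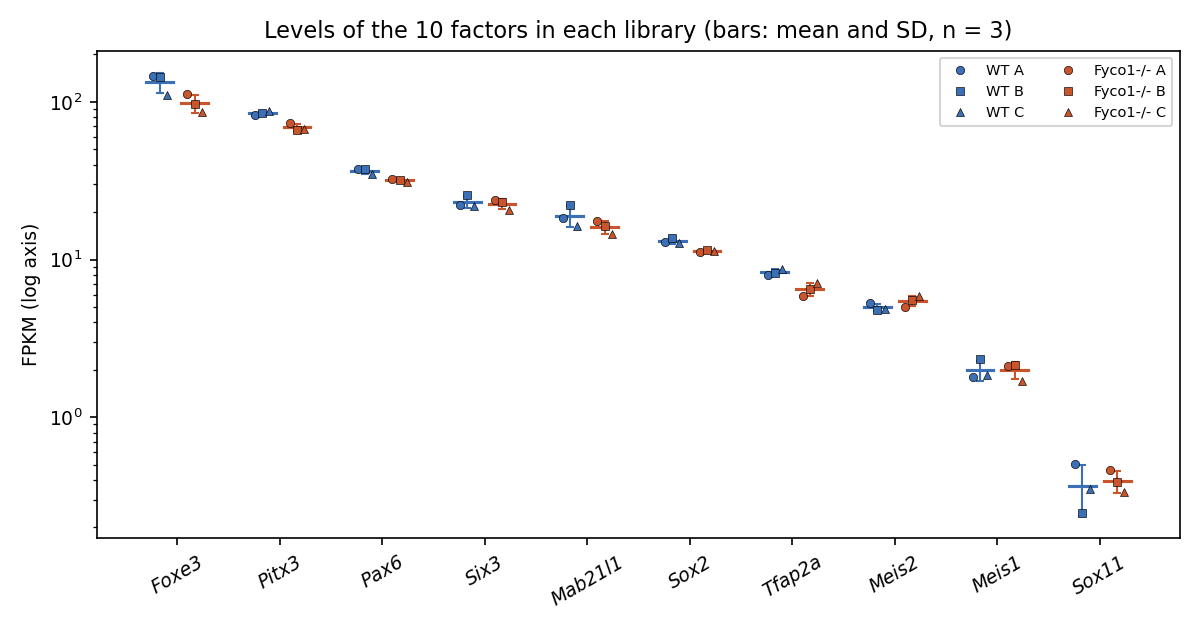
FPKM on a log axis for each of the 10 factors in the 3 WT (blue) and 3 Fyco1-/- (orange) libraries, with marker shapes for libraries A, B and C and bars for the mean and SD (n = 3). Foxe3 and Pitx3 lie highest and Sox11 lowest in both genotypes, and the Fyco1-/- values of Pitx3, Pax6, Sox2 and Tfap2a lie wholly below those of WT.

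Pax6, Pitx3 and Tfap2a fell in Fyco1-/- lenses, by 12.8%, 19.2% and 22.0% of their WT means. No member rose. Foxe3 had the greatest difference in means (-26.4%), but its WT libraries were spread widely and it did not pass the test. Sox2 (-13.3%) and Mab21l1 (-15.2%) also missed the threshold, and Six3, Meis1 and Meis2 did not pass the test and had overlapping ranges. The test was limma on log2(FPKM + 0.5), two-sided, with Benjamini-Hochberg adjustment over all 12001 tested genes, and a gene was called at an adjusted p under 0.05. In RNA from whole lenses, fewer cells of a type and less RNA per cell cannot be told apart.

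Thus 3 of the 9 tested members were called, all lower, where 8.43% of all tested genes were called, 5.02% lower and 3.42% higher. At an unadjusted p under 0.05 there were 5 members, all with a negative fold change, where 15.1% of all tested genes were lower at that threshold. In 4 of the 9 (Pitx3, Pax6, Tfap2a and Sox2) all 3 Fyco1-/- values lay below all 3 WT values, and in 0 they lay above. Over all tested genes those shares were 18.6% and 11.1%. Of the 9 fold changes 7 were negative and 2 positive, with a median log2 of -0.20 beside -0.04 for all tested genes. With 9 members chosen by name, these counts describe the group and are not a test of it. Summed over the 10 genes, levels were 334, 343 and 300 FPKM in WT libraries A to C and 283, 261 and 246 FPKM in Fyco1-/- libraries A to C, a sum to which Foxe3 contributes most.

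**Figure D2:**
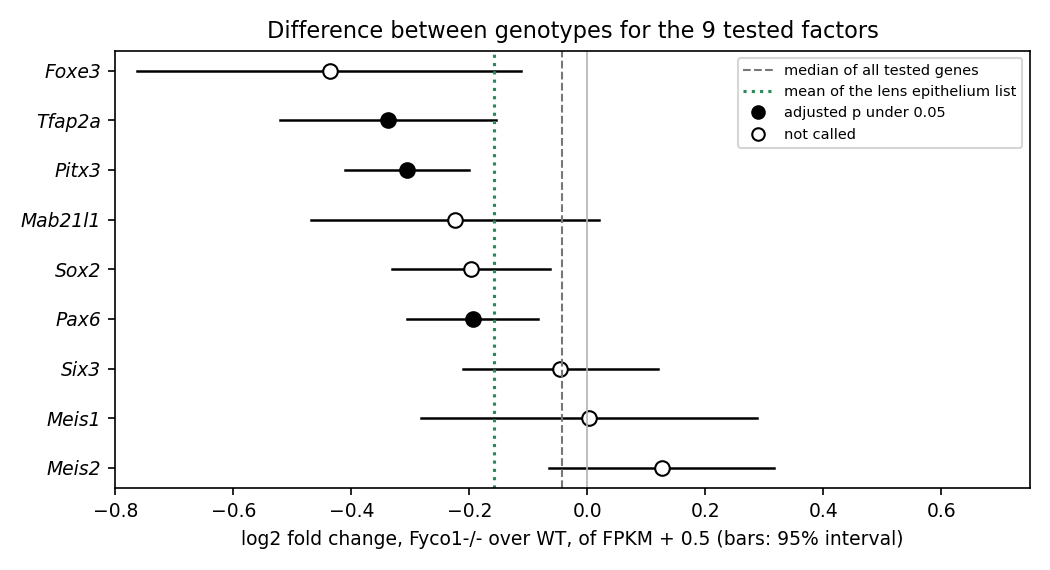
Log2 fold change of Fyco1-/- over WT on the log2(FPKM + 0.5) scale for the 9 tested factors, with 95% intervals from limma, filled points for an adjusted p under 0.05, and lines for the median of all tested genes (-0.04) and the mean of the lens epithelium list (-0.16). Tfap2a, Pitx3 and Pax6 are filled and lie between -0.34 and -0.19, while the open point of Foxe3 lies furthest left with the widest interval.

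The promoters of Foxe3, Pitx3 and Pax6, the 3 most abundant members, are shown from 250 bases before to 50 bases after an annotated start. They are RefSeq sequences on GRCm38.p6, written 5′ to 3′ on the gene's strand. Capitals mark matches on either strand to the core letters of some of the families that the members belong to. These were MEIS (TGACAG), PITX (TAATCC), forkhead (GTAAACA), SOX (ACAAAG) and AP-2 (GCCNNNGGC). Letters for the families of Pax6 and Six3 were not searched.
Pax6 promoter, chr2:105668646-105668945 (+ strand): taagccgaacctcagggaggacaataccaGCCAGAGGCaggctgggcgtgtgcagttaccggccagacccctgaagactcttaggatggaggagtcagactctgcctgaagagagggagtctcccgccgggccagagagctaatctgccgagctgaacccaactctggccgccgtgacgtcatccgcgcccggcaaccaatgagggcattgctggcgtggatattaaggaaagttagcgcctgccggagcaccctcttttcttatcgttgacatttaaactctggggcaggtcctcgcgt
Pax6 promoter, chr2:105682213-105682512 (+ strand): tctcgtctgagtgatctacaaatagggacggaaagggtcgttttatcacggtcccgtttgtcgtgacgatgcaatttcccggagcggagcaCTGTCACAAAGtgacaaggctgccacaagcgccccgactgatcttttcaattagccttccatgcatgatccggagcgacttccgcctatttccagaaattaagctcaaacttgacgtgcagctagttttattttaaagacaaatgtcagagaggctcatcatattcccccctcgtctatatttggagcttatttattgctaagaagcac
Pitx3 promoter, chr19:46148276-46148575 (- strand): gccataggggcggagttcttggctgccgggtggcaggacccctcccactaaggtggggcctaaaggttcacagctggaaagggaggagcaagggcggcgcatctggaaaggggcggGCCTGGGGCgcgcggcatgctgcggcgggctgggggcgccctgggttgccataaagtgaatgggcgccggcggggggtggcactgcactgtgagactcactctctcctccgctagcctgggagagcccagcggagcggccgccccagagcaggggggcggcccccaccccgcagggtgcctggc
Foxe3 promoter, chr4:114926018-114926317 (- strand): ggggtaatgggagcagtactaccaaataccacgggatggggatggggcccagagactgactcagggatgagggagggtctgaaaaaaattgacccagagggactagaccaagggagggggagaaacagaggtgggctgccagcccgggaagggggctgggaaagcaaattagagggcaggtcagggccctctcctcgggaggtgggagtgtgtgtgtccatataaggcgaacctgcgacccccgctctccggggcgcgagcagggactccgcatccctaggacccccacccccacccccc
The upstream Pax6 start has an AP-2 match beginning at position -221, counted from the start. The second Pax6 start, further into the gene, has a MEIS match and a SOX match beginning at positions -159 and -154, which share 1 base and so appear as a single run of capitals. Pitx3 has an AP-2 match at position -134, and Foxe3 has no match in this window.

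Among 32851 promoters of the same length, 19.2% held the MEIS letters, 7.1% the PITX letters, 3.6% the forkhead letters, 18.7% the SOX letters and 16.6% the AP-2 letters, so most of these matches are common. RefSeq entries were found for 9 of the 10 members, giving 11 promoters. Sox2 held a MEIS and a SOX match, Six3 a MEIS match and Sox11 an AP-2 match. Meis1, Meis2 and both Tfap2a starts had none. A match is a description of letters and not a measured binding site. The RNA data do not separate the starts of Pax6 or Tfap2a.

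Pax6 (ENSMUSG00000027168, GRCm38 chromosome 2, 105668900 to 105697364, plus strand) encodes a paired-domain and homeodomain factor. Its level was 37.4, 37.5 and 34.6 FPKM in WT libraries A to C and 32.3, 32.1 and 31.1 FPKM in Fyco1-/- libraries A to C. WT C was the lowest of its group but still above every Fyco1-/- library. The means were 36.5 ± 1.62 and 31.8 ± 0.63 FPKM (SD, n = 3 libraries each), a log2 fold change of -0.19 (SE 0.05, limma adjusted p = 0.0398). The 95% interval ran from -0.31 to -0.08 on the log2 scale. The Pax6 call is close to the threshold. It was lost on leaving out WT A (adjusted p = 0.13), WT B (0.134), Fyco1-/- A (0.0628), B (0.0965) or C (0.12), and kept without WT C (0.0312). The log2 fold change stayed between -0.23 and -0.18 in those 6 fits.

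Pitx3 (ENSMUSG00000025229, chromosome 19, 46135685 to 46148326, minus strand) is the homeobox gene whose promoter is deleted in the aphakia mouse, which lacks a lens. It measured 82.8, 85.4 and 87.8 FPKM in WT libraries A to C and 73.0, 66.2 and 67.7 FPKM in Fyco1-/- libraries A to C. The WT libraries lay within 5 FPKM of each other and well above the Fyco1-/- libraries. Pitx3 had the lowest adjusted p of the members (log2 -0.31, SE 0.05, limma adjusted p = 0.00353), with a 95% interval of -0.41 to -0.20. The call held on leaving out each library in turn, with adjusted p from 0.00184 to 0.0181.

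Foxe3 (ENSMUSG00000044518, chromosome 4, 114925147 to 114926013, minus strand) encodes a forkhead factor that keeps lens epithelial cells dividing and alive. It measured 145.18, 143.66 and 110.87 FPKM in WT libraries A to C and 111.38, 97.1 and 85.7 FPKM in Fyco1-/- libraries A to C. WT C lay with Fyco1-/- A rather than with the other WT libraries, so the groups overlapped by those libraries alone. The means were 133 ± 19.4 and 98.1 ± 12.8 FPKM (SD, n = 3 each), and the coefficients of variation, 14.6% and 13.1%, exceeded those of Pax6 at 4.44% and 1.99%. The log2 difference was -0.44 (SE 0.14, 95% interval -0.76 to -0.11), with an adjusted p of 0.109 in limma. Without WT C it was -0.56 with adjusted p = 0.0189, and on leaving out any other library adjusted p ran from 0.0811 to 0.267. Whether the lower Foxe3 of WT C comes from the pool or from the library was not tested.

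Tfap2a (ENSMUSG00000021359, chromosome 13, 40715302 to 40738376, minus strand) encodes AP-2 alpha, a factor of surface ectoderm that is kept in lens epithelium. It measured 7.99, 8.17 and 8.74 FPKM in WT libraries A to C and 5.87, 6.50 and 7.05 FPKM in Fyco1-/- libraries A to C. All Fyco1-/- values were lower than all WT values, with a log2 fold change of -0.34 (SE 0.08, limma adjusted p = 0.0323). The Tfap2a call was kept only without Fyco1-/- C (adjusted p = 0.0309). Leaving out WT A, B or C gave 0.0668, 0.0849 and 0.0869, and leaving out Fyco1-/- A or B gave 0.084 and 0.0837. Tfap2a rests on an estimated 541 to 802 reads per library.

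Sox2 (ENSMUSG00000074637, chromosome 3, 34650405 to 34652461, plus strand) is an HMG-box factor that works with Pax6 on lens enhancers and gives way to Sox1 in fibres. Its level was 12.9, 13.7 and 12.8 FPKM in WT and 11.2, 11.6 and 11.3 FPKM in Fyco1-/- libraries, in the order A, B, C. The groups did not overlap, but the log2 difference of -0.20 (SE 0.06, 95% interval -0.33 to -0.06) had an adjusted p of 0.0741 in limma. Sox2 was called in 0 of the 17 alternative fits.

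Mab21l1 (ENSMUSG00000056947, chromosome 3, 55782510 to 55785001, plus strand) is a Mab-21 family gene that depends on Pax6 in the placode. It measured 18.3, 22.2 and 16.4 FPKM in WT libraries A to C and 17.5, 16.2 and 14.5 FPKM in Fyco1-/- libraries A to C. The ranges overlapped, and the WT spread was wide (18.9 ± 2.93 against 16.1 ± 1.49 FPKM, SD, n = 3 each). The log2 difference was -0.22 with a 95% interval of -0.47 to 0.02 and a limma adjusted p of 0.243.

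Six3 (ENSMUSG00000038805, chromosome 17, 85613608 to 85629302, plus strand), a homeobox gene acting upstream of Pax6 in the presumptive lens, measured 22.3, 25.5 and 22.0 FPKM in WT libraries A to C. Its values in Fyco1-/- A, B and C were 23.8, 23.0 and 20.7 FPKM, inside or near the WT range. The log2 difference was -0.05 with a 95% interval of -0.21 to 0.12 (limma adjusted p = 0.757). That interval includes the size of the Pax6 fold change, so the data do not show that Six3 behaved otherwise.

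Meis1 and Meis2 encode homeodomain proteins of the TALE class that bind the ectoderm enhancer of Pax6. Meis2 (ENSMUSG00000027210, chromosome 2, 115863064 to 116065839, minus strand) stood at 5.30, 4.77 and 4.85 FPKM in WT libraries A to C and 5.03, 5.53 and 5.87 FPKM in Fyco1-/- libraries A to C. Only Fyco1-/- A fell inside the WT range, and the log2 difference was 0.13 (95% interval -0.07 to 0.32, limma adjusted p = 0.409). Meis1 (ENSMUSG00000020160, chromosome 11, 18879817 to 19018985, minus strand) was mixed between the groups, at 1.80, 2.33 and 1.85 FPKM in WT and 2.12, 2.16 and 1.71 FPKM in Fyco1-/- libraries. Its log2 difference was 0.00 with a wide 95% interval of -0.28 to 0.29 (limma adjusted p = 0.993).

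Sox11 (ENSMUSG00000063632, chromosome 12, 27334264 to 27342574, minus strand), a SoxC gene of the early eye, was near the floor of detection. It measured 0.51, 0.25 and 0.35 FPKM in WT libraries A to C and 0.46, 0.39 and 0.34 FPKM in Fyco1-/- libraries A to C. The WT range enclosed all 3 Fyco1-/- values. Fitted without the filter on low values, its log2 difference was 0.05 with a limma adjusted p of 0.89.

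The members were set beside markers of lens epithelium from a list that holds none of them. The list was chosen with earlier results of these data known. Its genes Pdgfra, Sfrp2 and Dkk3 are also among the genes described downstream of Pax6, Foxe3 or Pitx3 that are treated below. Of 22 tested epithelial markers 8 fell and 0 rose by limma, with a median log2 of -0.16, and at an unadjusted p under 0.05 there were 11 lower and 1 higher. The strongest were the laminin receptor subunit Itga6 (log2 -0.70, limma adjusted p = 4.97e-05), the laminin chain Lamb1 (-0.51, 0.000269), the Wnt antagonist Sfrp1 (-0.22, 0.00185) and the glucose transporter Slc2a1 (-0.37, 0.00408). The mean log2 level of the list was 4.93, 4.90 and 4.82 in WT A, B and C and 4.72, 4.77 and 4.68 in Fyco1-/- A, B and C, a difference of -0.16. Of 17 genes of dividing cells 5 fell and 0 rose, with a median log2 of -0.44, and 12 were lower at an unadjusted p under 0.05. Without WT A, WT B or Fyco1-/- C, 3 of them were called lower. They include Pcna (log2 -0.70, limma adjusted p = 0.000746), the sliding clamp of DNA replication, and Mcm6 (-0.95, 0.00107), a subunit of the replicative helicase. In the fibre list 3 of 19 rose and 2 fell, with a median log2 of 0.05. The part of fewer or less active epithelial cells in the members' values was not tested.

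When every library was centred on the mean of the epithelium list, Pax6 moved to a log2 of -0.04 (limma adjusted p = 0.643) and Sox2 to -0.04 (0.7). Pitx3 moved to -0.15 (0.148), Tfap2a to -0.18 (0.21) and Foxe3 to -0.28 (0.0977), so none of the members remained called lower. On that scale Meis2 was 0.28 higher (adjusted p = 0.0437), Six3 0.11 and Meis1 0.16, and Meis2 was the single member called. Centring takes away the list's own difference of -0.16 between genotypes, so every log2 fold change is raised by that amount by construction. This scale moves the median of all tested genes from -0.04 to 0.12, and 17.3% of tested genes were called higher and 2.26% lower on it.

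**Figure D3:**
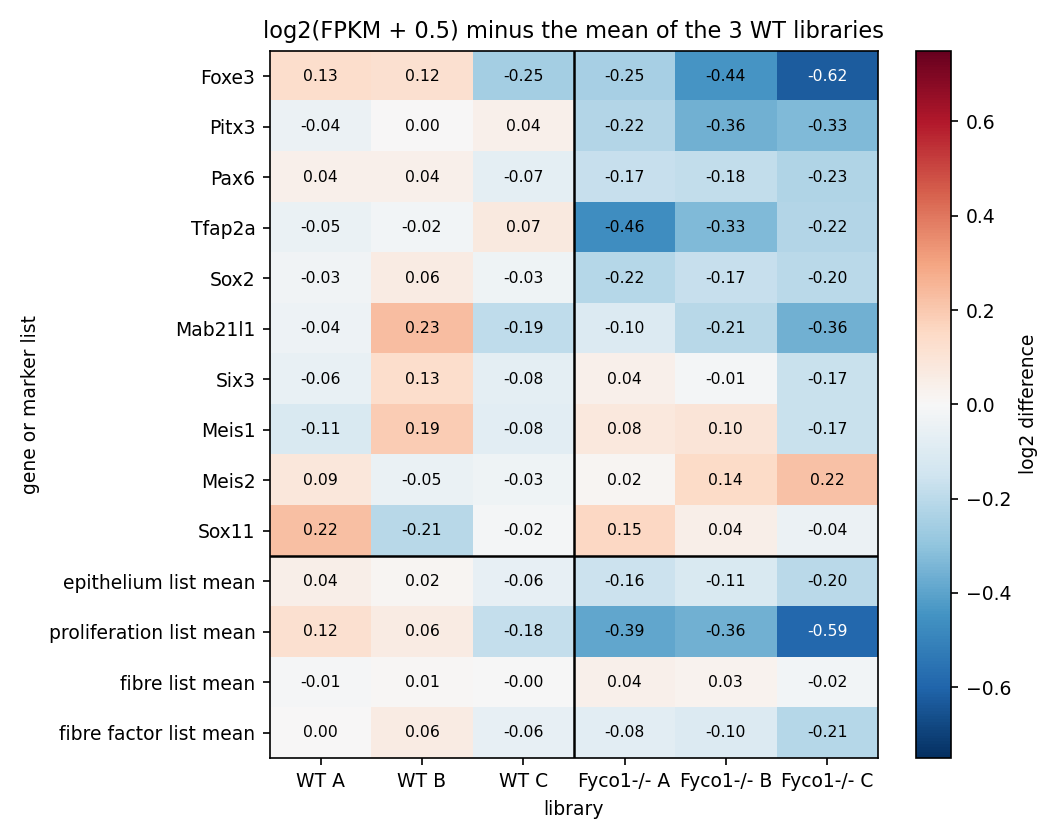
Log2(FPKM + 0.5) of each factor, and mean log2 of 4 marker lists, in each library minus the mean of the 3 WT libraries, as colours with the values printed. Foxe3 in WT C (-0.25) is as low as in Fyco1-/- A (-0.25), and the proliferation list is also lowest among WT libraries in WT C (-0.18), whereas Pitx3 and Tfap2a are not lowered there.

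A ratio within a library does not depend on how libraries are scaled, so each member was also set against Pax6. Sox2 kept the ratio most closely: 0.34, 0.37 and 0.37 of the Pax6 FPKM in WT libraries A to C and 0.35, 0.36 and 0.36 in Fyco1-/- A, B and C. Its log2 ratio differed by 0.00 (exact permutation p = 1.0). Foxe3 was 3.88, 3.83 and 3.20 times Pax6 in WT libraries and 3.45, 3.03 and 2.76 times in Fyco1-/- libraries, a log2 difference of -0.24 with overlapping groups (exact permutation p = 0.2, adjusted 0.3). The Pitx3 ratio differed by -0.11 and the Tfap2a ratio by -0.14 on the log2 scale, and both overlapped. Meis2 was the single gene of the 9 whose ratios did not overlap: 0.14, 0.13 and 0.14 in WT and 0.16, 0.17 and 0.19 in Fyco1-/- libraries. Its log2 difference of 0.32 had an exact permutation p of 0.1, the smallest that 3 against 3 libraries allow, and 0.3 adjusted over the 9 ratios. No ratio could therefore pass the threshold in this design. That p of 0.1 is also how often a ratio with no difference between genotypes would separate, in either direction. Pax6, the denominator, was itself lower in all 3 Fyco1-/- libraries (log2 -0.19), so an unchanged gene would also have a raised ratio. The level of Meis2 itself differed by a log2 of 0.13, with overlapping groups. Ratios of other genes to Pax6 were not computed, so no share over all genes can be set beside the Meis2 separation.

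**Figure D4:**
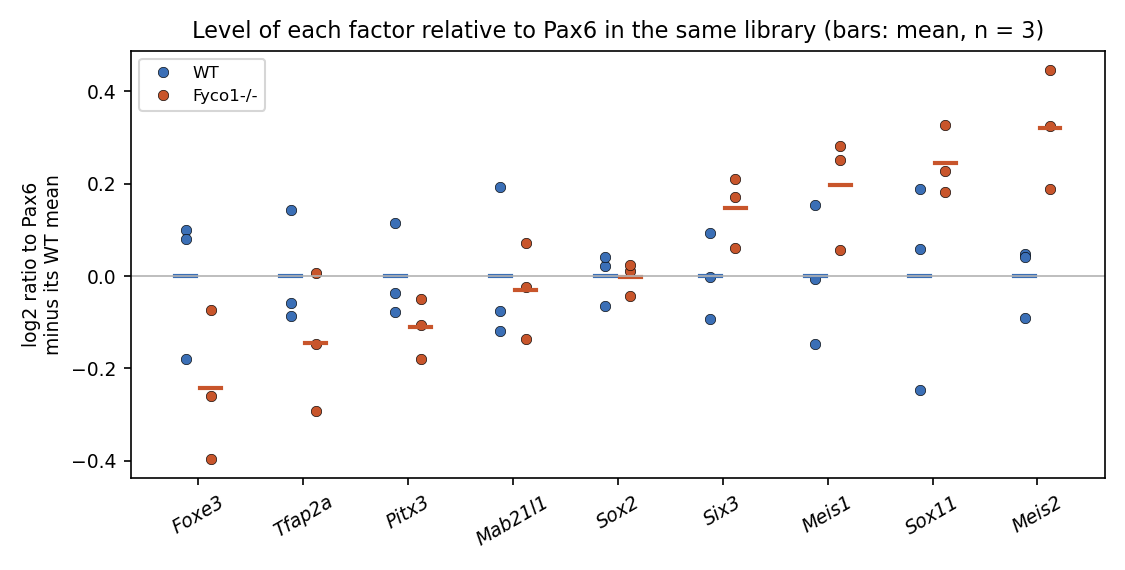
Log2 ratio of each factor to Pax6 in the same library, minus its WT mean, for 3 WT (blue) and 3 Fyco1-/- (orange) libraries, with short bars for the mean of each genotype. The Sox2 points cluster at 0 in both genotypes, and only the Meis2 points separate, with the Fyco1-/- mean 0.32 above WT.

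Several members share their locus with another transcript, and whether the authors' counting used strand is not given in the sources used here. Mab21l1 is a single exon lying inside Nbea on the opposite strand, and 39.4% of its exon bases are also Nbea exon in the annotation. Nbea measured 5.22 to 6.01 FPKM in WT and 5.26 to 5.50 FPKM in Fyco1-/- libraries, below Mab21l1 in every library. The antisense transcript Six3os1 shares 1.9% of the Six3 exon bases and was more abundant than Six3, at 53.0 to 59.1 FPKM in WT and 51.9 to 57.9 FPKM in Fyco1-/- libraries. Sox2 lies within Sox2ot on the same strand without a shared exon base. Sox2ot measured 37.8 to 44.4 FPKM in WT and 36.3 to 40.7 FPKM in Fyco1-/- libraries, above Sox2 in every library and overlapping between genotypes. Pax6os1, antisense to Pax6 with no shared exon base, measured 0.80 to 0.92 FPKM in WT and 0.61 to 1.12 FPKM in Fyco1-/- libraries. Exon bases are also shared by Tfap2a and the antisense Gm26688 (7.8% of Tfap2a) and by Meis1 and the antisense Gm16140 (8.5% of Meis1), so without strand the reads of these pairs could not be told apart there. Meis1 also shares 9.8% of its exon bases with Gm37818 on the same strand, where strand would not help. Smaller overlaps on the opposite strand are Gm28528 with Six3 (3.1%), Gm47061 and Gm47067 with Tfap2a (5.4% and 1.5%) and Elovl3 with Pitx3 (0.7%).

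The members stood among relatives that were mostly little expressed. Of 28 listed paralogues 26 were in the table, 16 of them below 0.5 FPKM in every library, and 9 were tested. Sox12, a SoxC relative of Sox11, was the single one called. It fell from 11.7, 11.2 and 10.3 FPKM in WT libraries A to C to 9.06, 9.19 and 8.05 FPKM in Fyco1-/- libraries A to C (log2 -0.32, limma adjusted p = 0.0288). It did not pass on leaving out WT A (adjusted p = 0.104), WT B (0.094) or Fyco1-/- C (0.0954), while 2 paralogues were called lower without WT C or without Fyco1-/- A. The median log2 of the tested paralogues was -0.21.

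Among 18 tested cofactors of the group, Eya1 was the single one called. Eya1, the phosphatase and coactivator that works with proteins of the Six3 family, fell from 6.71, 6.58 and 6.06 FPKM in WT libraries A to C to 3.86, 4.26 and 4.29 FPKM in Fyco1-/- libraries A to C. The groups were far apart (log2 -0.58, limma adjusted p = 0.00188), and the call held on leaving out each library in turn. Without WT C 2 cofactors were called lower, and 2 were called higher after centring on the epithelium list. The median log2 of the cofactors was -0.11.

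Of 16 tested factors of the fibre programme 1 rose and 2 fell, with a median log2 of -0.15. Called lower were 0 under median-of-ratios scaling, without WT A, and after centring on the epithelium list, where 4 were called higher. Leaving out WT B, WT C or Fyco1-/- C gave 1 called lower. Hsf4, a heat shock factor of fibre maturation, measured 143, 145 and 146 FPKM in WT and 175, 167 and 171 FPKM in Fyco1-/- libraries (log2 0.24, limma adjusted p = 0.00235). Prox1, the homeobox factor of fibre elongation, measured 89.1, 87.2 and 87.8 FPKM in WT and 76.6, 77.3 and 78.5 FPKM in Fyco1-/- libraries (log2 -0.18, limma adjusted p = 0.0131). Prox1 did not pass on leaving out WT A (adjusted p = 0.0582), under median-of-ratios scaling (0.0993) and after centring on the epithelium list (log2 -0.02, adjusted p = 0.78). Mycn also fell (log2 -0.23, adjusted p = 0.0481), a call lost on leaving out any of the 6 libraries.

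Of 15 tested genes described downstream of Pax6, Foxe3 or Pitx3 in lens, 2 rose and 3 fell, with a median log2 of -0.13. The falls were Prox1, Bmp7 (log2 -0.39, limma adjusted p = 0.0346) and Cdkn1c. The Bmp7 call was lost on leaving out WT A (adjusted p = 0.118), WT B (0.124), Fyco1-/- A (0.0668), B (0.105) or C (0.0688). Cdkn1c, the cell cycle inhibitor p57 switched on as cells leave the epithelium, measured 589, 590 and 593 FPKM in WT and 457, 468 and 432 FPKM in Fyco1-/- libraries (log2 -0.38, adjusted p = 0.000147). The rises were the crystallins Cryga (log2 0.90, adjusted p = 0.000341) and Cryab (0.15, 0.00961), the latter at a log2 of 0.00 (adjusted p = 1.0) under quantile normalization. Centred on the epithelium list, 6 of these genes were called higher and 1 lower, and without WT A 1 was called lower. Whether any of these differences follows from the members was not tested.

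The authors' deposited table, from DESeq2 on read counts, also holds values for all 10 genes. In it, 3 members had an adjusted p under 0.05 and a negative log2 fold change, where 4.15% of all genes given an adjusted p did. In the authors' deposited table these were Foxe3 (log2 -0.37, adjusted p = 0.000186), Pitx3 (-0.25, 0.00138) and Pax6 (-0.14, 0.0337). The authors' deposited table gives Tfap2a a log2 fold change of -0.27 with an adjusted p of 0.0804, on the other side of the threshold from limma. The authors' deposited table gives Sox2 -0.14 (0.431), Mab21l1 -0.17 (0.258), Six3 0.00 (1.0), Meis1 0.04 (0.923), Meis2 0.17 (0.304) and Sox11 0.08 (0.867). Pax6 and Pitx3 were thus the members called lower both by limma and in the authors' deposited table.

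**Figure D5:**
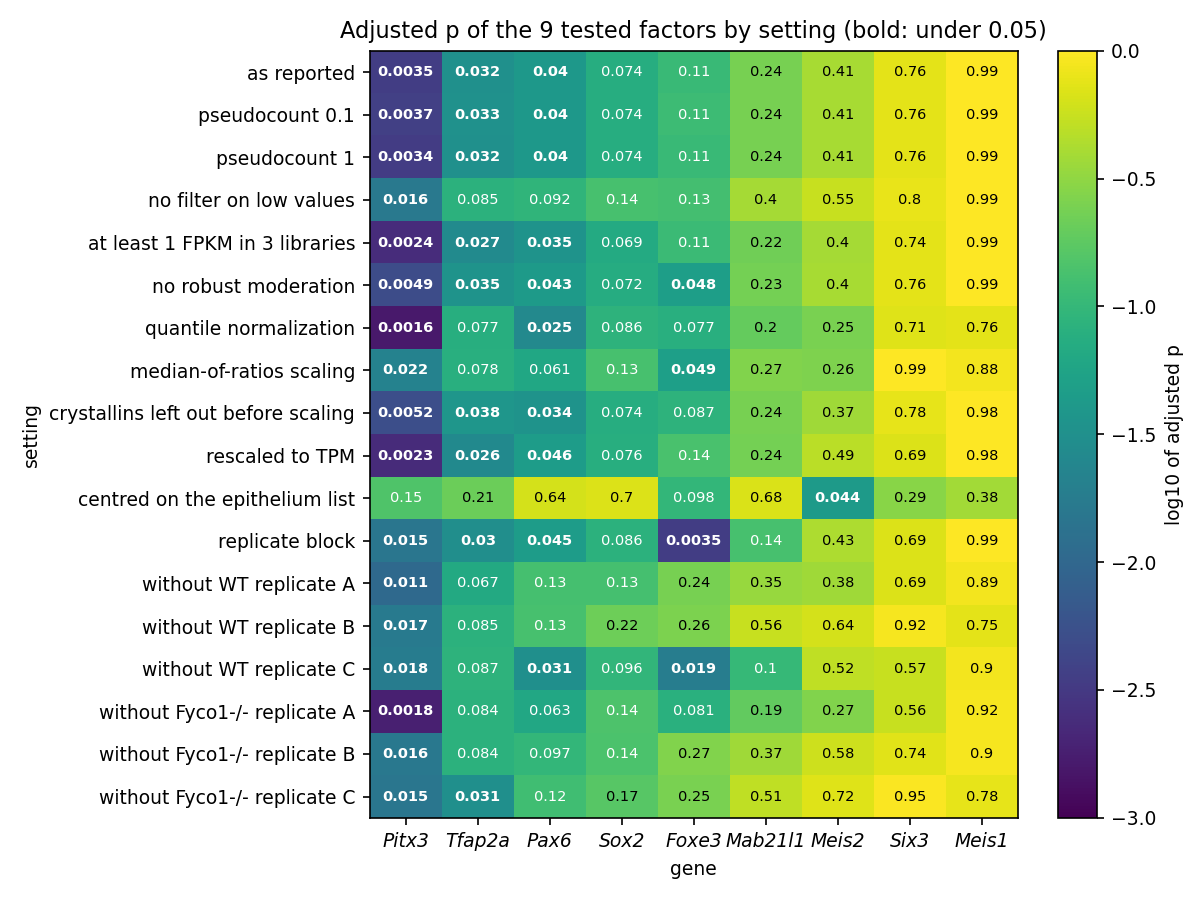
Adjusted p of the 9 tested factors (columns) under the reported fit and 17 alternatives (lines of the grid), coloured by log10 of adjusted p with values printed and those under 0.05 in bold. Pitx3 is bold in all but the fit centred on the epithelium list, Pax6 and Tfap2a in 9 and 8 of the alternatives, Foxe3 in 4, and Sox2, Mab21l1, Six3 and Meis1 in none.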

How the data were processed

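Per the labels, NEB Next Ultra libraries of total RNA were read on an Illumina HiSeq. Per the submitters' processing notes, reads were aligned to GRCm38/mm10 with STAR 2.5, counted per gene with HTSeq 0.6.1 and compared by the authors with DESeq2 (release not stated). The authors deposited FPKM values, 1 column per library, together with their DESeq2 log2 fold changes, p-values and adjusted p-values. The annotation, the strand setting and the total behind the FPKM scaling are not given in the sources used here.

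Rows with a mean of at least 0.5 FPKM over the 6 libraries were log-transformed as log2(FPKM + 0.5) and fitted by genotype alone. The fit used limma 3.58.1 under R 4.3.3, with a mean-variance trend and robust moderation, and its steps were run on simulated data. The simulation drew independent normal noise on the log scale, with no shift between libraries. It therefore does not bear on calls that depend on scaling or on single libraries. Fold changes on that scale understate those of low genes. Log2 ratios to Pax6, with 0.5 added to each FPKM, were compared by exact two-sided permutation tests (scipy 1.17.1, Python 3.11.15). Since 3 against 3 libraries cannot give an exact p under 0.1, the calls come from limma, whose variance estimate borrows from other genes. The labels call the libraries biological replicates. Positions and exon lengths are from GENCODE M21, which 93.3% of table rows matched by symbol, and read numbers were estimated from step sizes among low FPKM values. From 54.2 to 56.0% of values of 1 to 10 reads lay within 0.05 of a whole read, so depths are estimates and no counting intervals are given. Promoters are RefSeq sequences of GRCm38.p6.

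Named genes are the 10 members and, from each other list, every called gene where 5 or fewer were called, otherwise the 4 with the smallest p, of which the text gives the main ones, with Rax, Tubb3, Rbpms, Elavl4, Cdh1, Sfrp1 and Crybb1 as tissue checks. The members and lists were chosen with earlier results of these data known. Alternatives were pseudocounts of 0.1 and 1, other filters, moderation, scalings (median-of-ratios, quantile, TPM, without crystallins, centred on the epithelium list), the replicate block and leaving out each library.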

Additional observations from a re-analysis of the deposited data

How the results depend on the processing

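The 17 alternatives changed the number of called members in some fits. It was 1 instead of 3 (1 lower) with no filter on low values, where more genes are tested. It was 1 when libraries were centred on the epithelium list, with 0 lower and 1 higher (Meis2). Leaving out each library in turn gave 1 to 3 called members, 1 to 3 of them lower, with fewer libraries behind each fit. Calls over all tested genes changed too. They were 410 higher and 602 lower as reported, and 246 and 322 with no filter, where 22298 genes were tested. On leaving out a library they ran from 268 to 332 higher and from 325 to 541 lower. With the replicate block they were 367 and 562. Tfap2a also lost its call under quantile normalization (adjusted p = 0.0767) and median-of-ratios scaling (0.0781), and Pax6 under the latter (0.0615). Foxe3 was called without robust moderation (0.0477) and under median-of-ratios scaling (0.0493). For these scalings the cause was not tested. Six3 changed sign when centred on the epithelium list (log2 0.11) and on leaving out libraries (-0.088 to 0.020), and Meis1 on rescaling to TPM (-0.009) and on leaving out libraries (-0.053 to 0.099). Centring raised the share of higher calls among all called genes from 40.5% to 88.5%, and median-of-ratios scaling raised it to 56.5%. Over all tested genes together the library letters showed no pairing: deviations of same-lettered libraries correlated at -0.03, 0.03 and 0.03. That does not settle the matter for single genes. Library C was the lowest of each genotype for Foxe3 (110.87 FPKM in WT, 85.7 in Fyco1-/-) and for the mean log2 of the epithelium list (4.82 and 4.68). Whether the letters mark a shared step was not tested. With the letters as a replicate block 4 members were called, Foxe3 among them (adjusted p = 0.00352). Of 153 member fold changes refitted under the alternatives, 122 kept their direction and side of the threshold. That count includes members not called as reported, which mostly stayed uncalled. Of the called members, Pitx3 kept its call in 16 of the 17 alternatives, Pax6 in 9 and Tfap2a in 8. Depth limits Sox11 and Meis1 most, at an estimated 41 to 72 and 323 to 492 reads.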

Other observations

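The order of libraries differed between members. Foxe3 was highest in WT A and WT B (145.18 and 143.66 FPKM), then in Fyco1-/- A and WT C (111.38 and 110.87 FPKM), and lowest in Fyco1-/- B and C (97.1 and 85.7 FPKM). The summed genes of dividing cells were 73.7, 71.2 and 60.8 FPKM in WT libraries A to C and 51.2, 51.2 and 43.5 FPKM in Fyco1-/- libraries A to C, so WT C was the lowest WT library and Fyco1-/- C the lowest of all 6 in both. Tfap2a ran otherwise, with Fyco1-/- C the highest of its group at 7.05 FPKM. These orders are descriptions of 6 libraries and were not tested.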
